A study of Homo sapiens with 2 samples.

Results

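KRT7, TGFB2 and FST high endothelial cells are described here among human umbilical vein endothelial cells (HUVECs) that had lined small perfused channels. A barcode was kept when it held 5000 or more UMIs, the unique molecular identifiers that count RNA molecules, with at most 10% of them from mitochondrial genes. The members are the 214 of 2138 kept barcodes, of 5493 in all, with the highest share of UMIs from KRT7, TGFB2, FST, FGF2, RSPO3, FBLN5, LYPD1 and TBX1. The cut was the top 10% over both libraries together. These 8 genes chose the members, so their own levels describe the choice and are no finding. The members are a range of a continuous score and not a separate type.

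KRT7 is a type II keratin of simple epithelia that cultured endothelial cells can also make. TGFB2 is a ligand of the TGF-beta receptors, and FST, follistatin, is a secreted protein that binds activins and keeps them from their receptors. FGF2 is a fibroblast growth factor that acts on endothelial cells, RSPO3 is a secreted enhancer of WNT signalling, and FBLN5 is a glycoprotein of elastic fibres. LYPD1 is a small membrane-anchored protein of the LY6 family, and TBX1 is a T-box transcription factor of the developing pharynx and heart. Endothelial cells of large vessels, small vessels and valves differ in such secreted factors and matrix genes, and HUVECs come from a vein.

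HUVECs are primary cells. They were seeded in medium with dextran and grown for about 48 hours under flow of growth medium until they lined 50 µm channels, and were then perfused for 4 hours. In the hRBC group the channels received healthy red blood cells. In the 5% pdRBC group they received healthy red cells of which 5% had been shrunk with nystatin and sucrose, a pharmacological dehydration that brought their hemoglobin to 40 to 42 g/dL (mean corpuscular concentration); such cells serve as a model of the stiff red cells of sickle cell disease and are not patients' cells. Each group is 1 library of 10x Genomics 5′ single-cell RNA sequencing, so no value has a replicate check and no p-value is given. Library and treatment cannot be told apart.

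The hRBC library held 3858 barcodes and 14321939 UMIs, of which 769 barcodes (19.9%) were kept, and the 5% pdRBC library held 1635 barcodes and 16158876 UMIs, of which 1369 (83.7%) were kept. All but 1 of the barcodes left out had fewer than 5000 UMIs. The libraries share 9 barcode sequences, of which 2 were kept in hRBC and 8 in 5% pdRBC, with 0 and 1 members among them. Without them the counts of called genes given below became 71 and 138 for members against remaining barcodes, and 199 and 198 for the 2 libraries within members. The barcodes left out carried the 8 genes at 368 CPM, a gene's UMIs scaled to a total of 1e6 UMIs, in hRBC and 271 CPM in 5% pdRBC, against 334 and 288 CPM over the kept barcodes.

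Members made up 83 of 769 kept barcodes in hRBC, or 10.8% (exact 95% interval 8.69 to 13.2), and 131 of 1369 in 5% pdRBC, or 9.57% (8.06 to 11.3). All intervals here cover counting error only. The cut ran through a continuous range: the lowest member had 0.07915% of its UMIs in the 8 genes and the highest remaining barcode 0.07910%. Within 10% of the cut lay 33 members above it and 42 remaining barcodes below it, while 66 members had a score of at least 2 times the cut and 608 of 1924 remaining barcodes (31.6%) had no UMI of any of the 8 genes. The median member had 16 such UMIs in hRBC and 12 in 5% pdRBC, against 1 in the remaining barcodes of either library. At least 3 of the 8 genes were seen in 167 members (78.0%) and in 207 remaining barcodes (10.8%).

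Members were slightly deeper than the remaining barcodes. Their median was 13054 UMIs against 12257.5 in hRBC and 10424 against 10174 in 5% pdRBC. The median mitochondrial share was 1.77% against 1.81% in hRBC and 1.94% against 1.79% in 5% pdRBC. The median share of UMIs from S, G2 and M phase genes was 0.0418% against 0.0329% in hRBC and 0.0334% against 0.0329% in 5% pdRBC. The part of depth in the differences below was not tested beyond the thinning given with the processing alternatives.

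The label was checked against defining markers. All 12 endothelial markers were measured in members, and they summed to 3713 CPM in members against 4354 in remaining barcodes of hRBC, and to 3557 against 4219 CPM in 5% pdRBC. CDH5, the cadherin of endothelial junctions, stood at 526 CPM in hRBC members against 661 in the remaining barcodes, and at 514 against 625 CPM in 5% pdRBC. Of the 12 only EMCN and CLDN5 were lower in both libraries by the 1.5-fold rule used for all genes, by which 1.65% of all measured genes were lower. Of 17 epithelial markers other than KRT7, 10 had no UMI in any member, among them EPCAM and CDH1, and only KRT8 and KRT18 were measured; the list summed to 312 CPM against 157 in hRBC and 189 against 114 CPM in 5% pdRBC. Of 9 mesothelial markers other than KRT7, 6 had no UMI in members, among them WT1 and MSLN, and only KRT18 was measured; this list summed to 275 CPM against 132 in hRBC and 166 against 91.2 CPM in 5% pdRBC. Fibroblast markers summed to 3.70 CPM in hRBC members and 2.74 in 5% pdRBC members, with 9 of 12 at 0 in members and COL1A1 at 0. The 11 erythroid markers had no UMI among the 1081808 UMIs of hRBC members or the 1462068 of 5% pdRBC members, where a count of 0 allows up to 3 counts.

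The genes that chose the members come first, each with its place in GRCh38 as GENCODE 29 gives it, and each read again in barcodes chosen by the other 7. KRT7 lies at chr12:52232520-52252186, TGFB2 at chr1:218346235-218444619, FST at chr5:53480409-53487134 and FGF2 at chr4:122826708-122898236, all on the plus strand. RSPO3 (chr6:127118604-127197765) and TBX1 (chr22:19756703-19783593) also lie on the plus strand, FBLN5 (chr14:91869412-91947987) and LYPD1 (chr2:132644853-132671579) on the minus strand. All 8 are protein-coding, and UMIs were summed over the whole gene.

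KRT7 as chosen stood at 889 CPM in members against 72.9 in remaining barcodes of hRBC, and at 768 against 56.5 CPM in 5% pdRBC. When the other 7 genes chose the barcodes, KRT7 was 459 against 132 CPM in hRBC, a ratio of 3.48 (3.10 to 3.89), and 434 against 90.5 CPM in 5% pdRBC, a ratio of 4.80 (4.35 to 5.27). That choice shared 128 of 214 barcodes (59.8%) with the members, so much of the membership rested on KRT7, the source of 962 of 1643 score UMIs of hRBC members and 1123 of 2036 in 5% pdRBC.

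FST, the activin antagonist, stood at 272 CPM in members against 8.59 in hRBC, and at 163 against 6.45 CPM in 5% pdRBC. Left out of the score, FST was 187 against 18.9 CPM in hRBC, a ratio of 9.92 (8.05 to 12.3), and 103 against 12.7 CPM in 5% pdRBC, a ratio of 8.08 (6.46 to 10.1). TGFB2 left out was 41.7 against 9.04 CPM in hRBC, a ratio of 4.63 (3.13 to 6.73), and 44.0 against 7.40 CPM in 5% pdRBC, a ratio of 5.96 (4.29 to 8.19). The choice without TGFB2 shared 81 of 83 barcodes with the members of hRBC and 126 of 131 with those of 5% pdRBC. TGFB2 had a UMI in 28 of 83 hRBC members and 47 of 131 5% pdRBC members, and KRT7 in 82 and 121. The name of the members thus does not mean that each was high in all 3 genes. The 8 genes were picked together with results of these data known, so the readings with a gene left out are a description as well.

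RSPO3 was sparse, with 20 UMIs in hRBC and 23 in 5% pdRBC when left out of the score. Its ratios were 8.75 (4.44 to 17.3) and 8.38 (4.56 to 15.2). FGF2 had ratios of 2.34 (1.68 to 3.15) and 2.81 (2.15 to 3.61), and FBLN5 of 2.41 (1.45 to 3.76) and 2.79 (1.92 to 3.93). LYPD1 had ratios of 2.34 (1.88 to 2.87) in hRBC and 1.82 (1.51 to 2.16) in 5% pdRBC. TBX1 had 1.71 (1.26 to 2.27) and 1.97 (1.54 to 2.48).

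A further reading chose barcodes on a random 1 in 2 of their UMIs and took the 8 genes from the other UMIs. It gave 10.5 and 10.3 for KRT7, 17.7 and 15.3 for FST, and 3.96 and 10.6 for TGFB2 in hRBC and 5% pdRBC. The genes were the same ones, so these values too are a description.

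**Figure D1:**
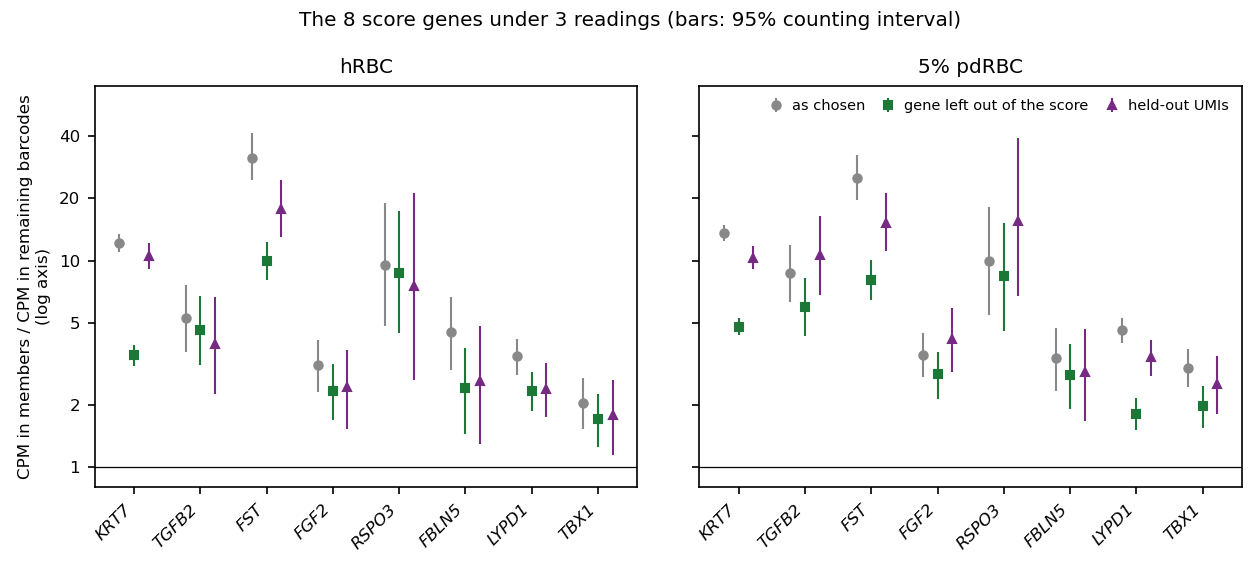
Each point is a gene's CPM in members over its CPM in remaining barcodes, on a log axis, in hRBC (left) and 5% pdRBC (right). Grey circles show the genes as chosen, green squares the gene left out of the score and purple triangles the held-out UMIs, with exact 95% counting intervals as bars; FST left out of the score stands at 9.92 and 8.08.

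Promoter sequence is shown for TGFB2, FST and LYPD1, the choosing genes whose entries hold a match to a motif of TEAD factors, which bind DNA for YAP and TAZ, or of AP-1. The 250 bases before the start are from RefSeq on GRCh38.p14, in the direction of transcription, with matches in capitals. The motifs searched were GGAATG on either strand for TEAD and TGANTCA, which reads the same on both strands, for AP-1.
TGFB2, chr1:218345086-218345335, plus strand, 1 TEAD match: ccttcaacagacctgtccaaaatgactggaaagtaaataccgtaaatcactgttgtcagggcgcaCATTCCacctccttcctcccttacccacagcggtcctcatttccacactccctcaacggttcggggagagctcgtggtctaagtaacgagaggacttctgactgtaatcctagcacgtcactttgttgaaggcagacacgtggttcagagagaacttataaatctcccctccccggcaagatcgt
FST, chr5:53480379-53480628, plus strand, 1 AP-1 match: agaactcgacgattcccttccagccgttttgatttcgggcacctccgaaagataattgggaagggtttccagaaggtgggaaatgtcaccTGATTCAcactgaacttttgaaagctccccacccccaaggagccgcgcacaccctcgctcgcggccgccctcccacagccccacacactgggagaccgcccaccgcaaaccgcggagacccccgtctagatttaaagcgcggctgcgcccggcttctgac
LYPD1, chr2:132671527-132671776, minus strand, 2 AP-1 matches side by side: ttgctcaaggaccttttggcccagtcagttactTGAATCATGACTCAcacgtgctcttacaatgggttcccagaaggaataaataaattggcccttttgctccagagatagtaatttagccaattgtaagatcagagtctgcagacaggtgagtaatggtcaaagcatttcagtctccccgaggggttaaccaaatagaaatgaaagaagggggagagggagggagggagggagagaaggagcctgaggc
The TEAD match of TGFB2 begins 185 bases before the RefSeq start of that gene, and the AP-1 match of FST 160 bases before its own. These RefSeq starts differ from the GENCODE positions given above. By GENCODE the FST match lies inside the gene, which begins at 53480409. The TGFB2 window ends at 218345335, short of the GENCODE start at 218346235. Of the 8 genes 7 have an entry, with 9 starts in all; 1 start held a TEAD match and 2 an AP-1 match. Over 35116 promoters of the same length, 11.9% held GGAATG and 6.57% held TGANTCA. A match is a stretch of letters and not a measured binding site.

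Members were next compared with the remaining barcodes over all other genes, each library by itself. Members of both libraries carried more RNA of SULT1E1, SLC7A2 and PTX3, among others, and less of TFPI2, EMCN, CLDN5 and 3 of 5 measured capillary genes. A gene was called when its CPM differed 1.5-fold or more, with a 95% counting interval that left out 1, in the same direction in both libraries; genes with 100 or more UMIs in each library were measured. Of 8494 measured genes, 72 were called higher in members (0.848%) and 140 lower (1.65%). In hRBC alone 261 (3.07%) were higher and 371 (4.37%) lower, and in 5% pdRBC alone 143 (1.68%) and 406 (4.78%). The median log2 ratio of all measured genes was 0.00 in hRBC and -0.04 in 5% pdRBC. Most genes called in hRBC had the same direction in 5% pdRBC: of the 261 higher genes 199 lay on the same side of 1, and of the 371 lower genes 321 did. The share with the same direction over all measured genes was not counted.

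**Figure D2:**
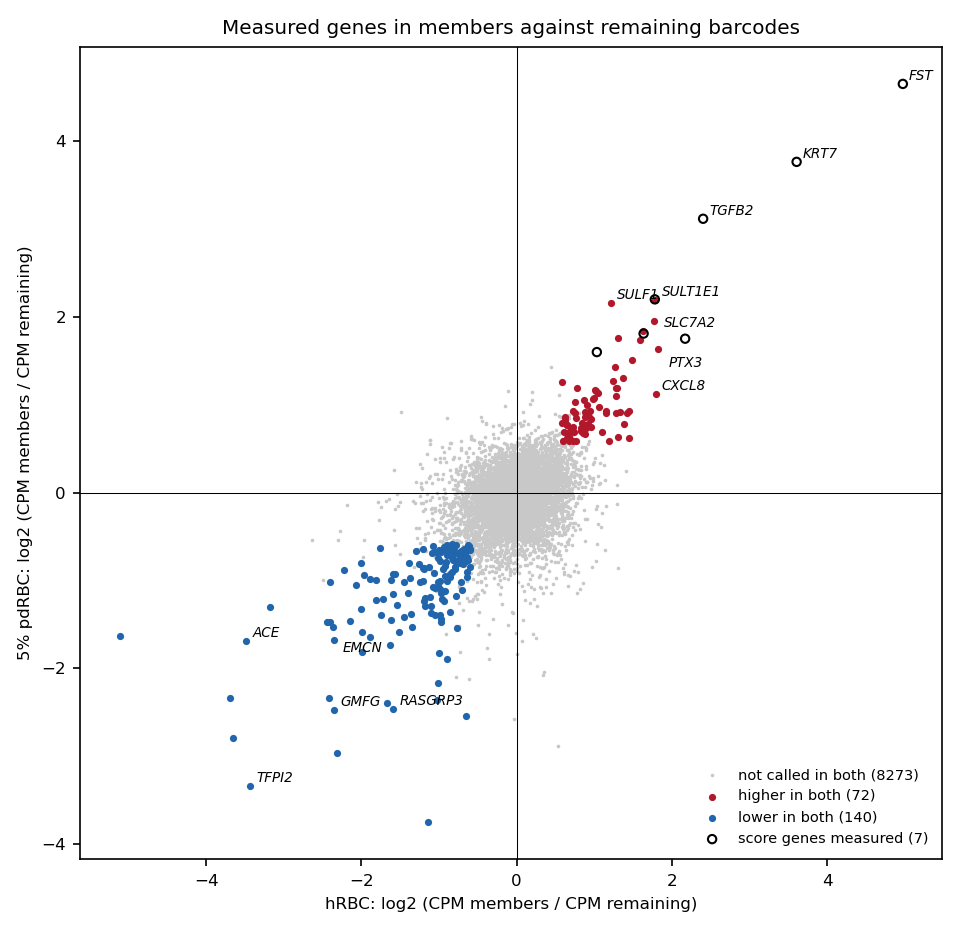
Each point is a gene, with the log2 ratio of CPM in members over remaining barcodes in hRBC (horizontal) and in 5% pdRBC (vertical). Red and blue mark the 72 genes higher and the 140 lower in both libraries, grey the others and open circles 7 of the genes that chose the members; 9 tested genes are not drawn, and SULT1E1 lies upper right and TFPI2 lower left.

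SULT1E1, the estrogen sulfotransferase, was 48.1 CPM in members against 14.0 in hRBC, 3.45-fold higher (2.43 to 4.78), and 54.0 against 11.8 CPM in 5% pdRBC, 4.58-fold higher (3.45 to 6.01). SULT1B1, another cytosolic sulfotransferase, was 86.9 against 35.3 CPM in hRBC, 2.47-fold higher (1.93 to 3.11), and 73.2 against 21.7 CPM in 5% pdRBC, 3.38-fold higher (2.68 to 4.21). SLC7A2, a carrier of arginine and other cationic amino acids, was 91.5 against 26.9 CPM in hRBC, 3.41-fold higher (2.66 to 4.32), and 102 against 26.4 CPM in 5% pdRBC, 3.87-fold higher (3.17 to 4.68). All 3 stood higher in the members of either library than in the remaining barcodes of both.

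PTX3, the long pentraxin of innate immunity, was 292 against 82.7 CPM in hRBC, 3.54-fold higher (3.09 to 4.04), and 275 against 88.4 CPM in 5% pdRBC, 3.11-fold higher (2.77 to 3.48). ABI3BP, an extracellular matrix protein, was 61.0 against 19.9 CPM, 3.08-fold higher (2.27 to 4.09), and 74.6 against 20.9 CPM, 3.57-fold higher (2.83 to 4.45). SULF1, which removes sulfate groups from heparan sulfate outside the cell, was 2.32-fold higher in hRBC (1.89 to 2.81) and 4.47-fold higher in 5% pdRBC (3.85 to 5.16). Its paralog SULF2 fell instead, 1.95-fold lower (1.23 to 3.48) and 2.32-fold lower (1.55 to 3.81). PLOD2, a lysyl hydroxylase of collagen, was 2.42-fold (2.02 to 2.88) and 2.29-fold (1.98 to 2.64) higher.

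SLIT2, a secreted guidance ligand, was 178 against 75.3 CPM in hRBC, 2.37-fold higher (2.01 to 2.78), and 187 against 77.7 CPM in 5% pdRBC, 2.42-fold higher (2.11 to 2.76). Among 19 measured guidance genes 3 were higher in both libraries and 4 lower, with medians of 0.01 and -0.07 on the log2 scale. NTN4, a laminin-related netrin, was 1.71-fold (1.45 to 2.0) and 2.27-fold (2.03 to 2.54) higher, and SEMA3F, named after its values were seen, completed the higher ones. The 4 lower genes were the receptors NRP1, NRP2 and EPHA4 and the ligand EFNB1. NRP2, a co-receptor of semaphorins and VEGF, was 104 against 206 CPM in hRBC, 1.98-fold lower (1.64 to 2.43), and 93.0 against 199 CPM in 5% pdRBC, 2.13-fold lower (1.80 to 2.56).

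CXCL8, the neutrophil chemokine interleukin-8, was 108 against 31.3 CPM in hRBC, 3.46-fold higher (2.76 to 4.30), and 150 against 69.1 CPM in 5% pdRBC, 2.18-fold higher (1.87 to 2.52). A single member held 34.2% of the members' CXCL8 UMIs in hRBC and another 19.5% in 5% pdRBC, and 20 of 83 and 40 of 131 members had any. In members without an FST UMI, CXCL8 was 72.8 CPM in 5% pdRBC, near the 69.1 CPM of the remaining barcodes. In hRBC such members had 59.8 CPM against 31.3 CPM. CD44, a hyaluronan receptor, was 2.74-fold (2.03 to 3.63) and 1.90-fold (1.34 to 2.59) higher. These were the 2 genes called among 8 measured genes of leukocyte adhesion and chemokines, 7 of which had ratios above 1 in both libraries.

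DMD, dystrophin, which links actin to the membrane, was 3.01-fold (2.18 to 4.06) and 3.33-fold (2.60 to 4.21) higher. BMX, a TEC-family kinase known from arterial endothelium, was 2.07-fold (1.56 to 2.69) and 2.19-fold (1.78 to 2.66) higher. Arterial genes as a list were not higher: of 10 measured 1 was called higher and 1 lower. In both libraries 2 of them were above 1 and 6 below, with medians of -0.15 and -0.15 on the log2 scale. RFLNA, PLSCR4, TOX and NEGR1 complete the 15 highest by the weaker library, between 2.14-fold and 2.85-fold in all.

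TFPI2, an inhibitor of serine proteases that endothelial cells deposit in their matrix, had the lowest ratios of all named genes by the weaker library. It was 18.5 CPM in members against 204 in remaining barcodes of hRBC, 10.8-fold lower (7.13 to 18.1), and 17.1 against 177 CPM in 5% pdRBC, 10.2-fold lower (7.0 to 16.03). The TFPI2 of the members came from 12 of 83 barcodes in hRBC and from 5 of 131 in 5% pdRBC. Among 12 measured coagulation and fibrinolysis genes TFPI2 and PLAT fell in both libraries and none rose; PLAT had 12 and 11 UMIs in members, and with held-out UMIs its log2 ratio in 5% pdRBC was 0.22.

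Capillary genes were low. FABP5, a fatty acid binding protein, was 56.4 against 146 CPM in hRBC, 2.57-fold lower (2.0 to 3.40), and 86.9 against 228 CPM in 5% pdRBC, 2.61-fold lower (2.20 to 3.16). RGCC, a regulator of the cell cycle enriched in capillaries, was 55.5 against 142 CPM, 2.55-fold lower (1.98 to 3.38), and 73.9 against 214 CPM, 2.88-fold lower (2.39 to 3.54). FABP4 was 5.55 against 54.2 CPM, 9.02-fold lower (4.45 to 26.7), and 30.1 against 75.1 CPM, 2.47-fold lower (1.85 to 3.46). Its level in members rests on few barcodes: a single member held 50.0% of 6 UMIs in hRBC and another 40.9% of 44 UMIs in 5% pdRBC. All 5 measured capillary genes were below 1 in both libraries, 3 of them called, with medians of -1.35 and -1.30.

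EMCN, the sialomucin endomucin, was 40.7 against 210 CPM in hRBC, 5.11-fold lower (3.83 to 7.13), and 60.9 against 196 CPM in 5% pdRBC, 3.19-fold lower (2.60 to 4.01). CLDN5, the claudin of endothelial tight junctions, was 8.32 against 45.3 CPM, 5.17-fold lower (2.84 to 12.01), and 19.8 against 58.4 CPM, 2.90-fold lower (2.03 to 4.42). Among 17 measured junction genes JAM3 fell as well, 1.99-fold (1.46 to 2.82) and 2.0-fold (1.57 to 2.63), while CDH2, N-cadherin, rose 1.93-fold (1.41 to 2.57) and 1.91-fold (1.45 to 2.45), and CLDN11 rose 2.72-fold (2.10 to 3.47) and 1.54-fold (1.16 to 1.99). The junction list as a whole had medians of 0.02 and -0.11.

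ACE, angiotensin-converting enzyme, had 3 UMIs in hRBC members and a ratio of 0.0893 (0.0157 to 0.226), with 3.23-fold lower levels in 5% pdRBC (2.12 to 5.45). PIEZO2, a mechanically gated channel, was 2.73-fold (1.66 to 5.22) and 2.67-fold (1.69 to 4.75) lower. TSPAN13 and TSPAN18, both tetraspanins, were 3.97-fold and 5.27-fold lower in hRBC and 2.99-fold and 2.78-fold lower in 5% pdRBC. GMFG, DEPP1, RASGRP3, CD40, TOX2 and LDLRAD4 complete the 15 lowest, at 2.72-fold to 5.58-fold.

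These differences depended in size on KRT7. With barcodes chosen by the other 7 genes, 42 genes were higher and 66 lower, of which 35 and 47 were also called with all 8, and the log2 ratio of TFPI2 became -1.81 in hRBC and -2.17 in 5% pdRBC. The same choice left LDLRAD4 at -0.43 and -0.50, CD40 at -0.29 and TOX2 at -0.35 in hRBC, short of 1.5-fold.

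The levels of several genes were graded over the score on both sides of the cut. Kept barcodes were split into those with no UMI of the 8 genes, 3 ranges of the remaining barcodes and a lower and an upper range of members, with 40 or more barcodes in each. TFPI2 ran through 361, 247, 149 and 50.1 CPM in the remaining barcodes of hRBC to 19 and 18.1 CPM in members. In 5% pdRBC TFPI2 ran through 255, 185, 170 and 68.0 CPM to 21.0 and 12.9 CPM. SULT1E1 went from 7.71 CPM at a score of 0 to 33.8 and 59.2 CPM in the lower and upper members of hRBC, and from 7.29 to 31.5 and 78.6 CPM in 5% pdRBC. PTX3 was 66.4 and 63.9 CPM at a score of 0 in the 2 libraries and 280 and 342 CPM in the upper members. FABP5 was not lowest in the upper members: it stood at 38.0 and 70.7 CPM in the lower and upper members of hRBC.

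**Figure D3:**
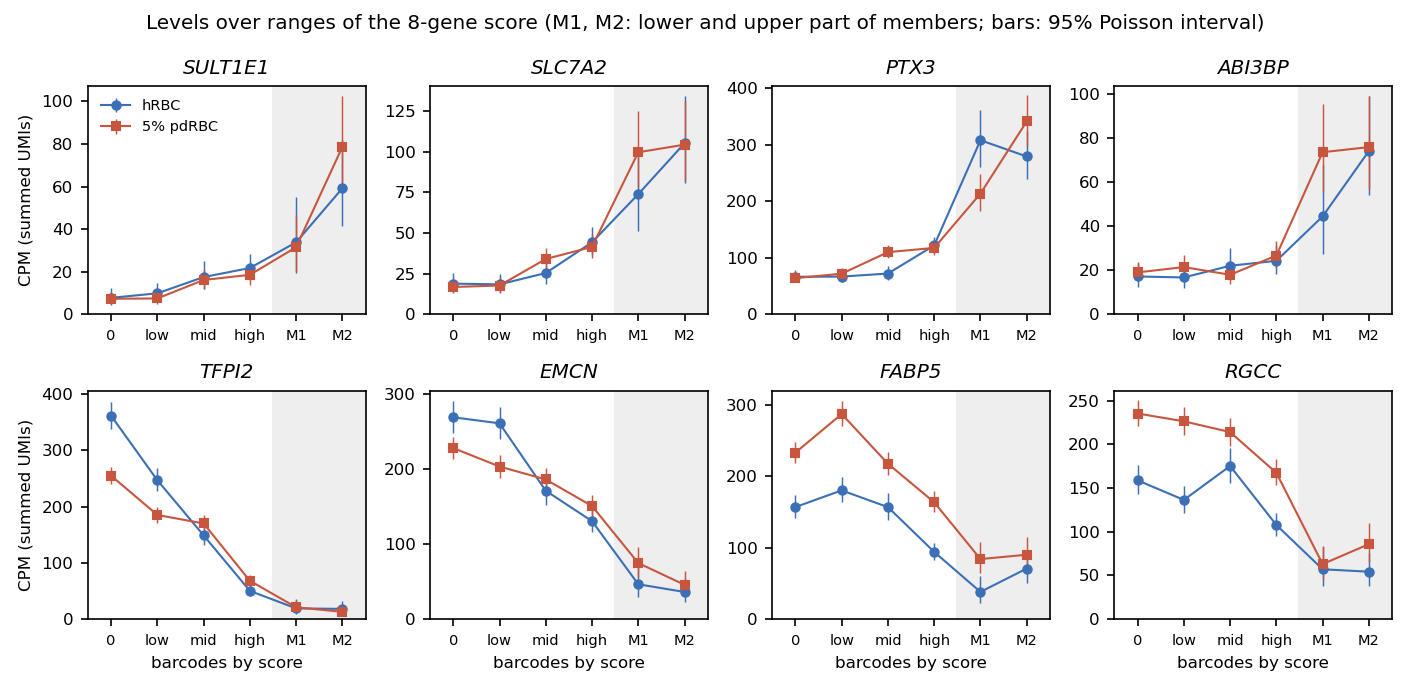
Each panel gives the CPM of a gene, with exact 95% Poisson intervals as bars, over 6 ranges of the 8-gene score in hRBC (blue) and 5% pdRBC (red); the grey area holds the members. SULT1E1, SLC7A2, PTX3 and ABI3BP are higher and TFPI2, EMCN, FABP5 and RGCC lower in members, and TFPI2 is already at 50.1 and 68.0 CPM in the range just under the cut.

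The pathways of the 8 genes were read from lists. Among 6 measured TGF-beta and activin ligands and carriers, INHBA rose in both libraries. INHBA encodes the subunit of activin A, the ligand that follistatin binds. It was 227 against 94.1 CPM in hRBC, 2.42-fold higher (2.09 to 2.79), and 204 against 109 CPM in 5% pdRBC, 1.87-fold higher (1.64 to 2.11). FSTL3, another activin antagonist, related to follistatin, was 53.6 against 32.1 CPM in hRBC, 1.68-fold higher (1.24 to 2.22), and 70.4 against 34.6 CPM in 5% pdRBC, 2.05-fold higher (1.63 to 2.53). An activin subunit and an antagonist of activin were thus both higher in members. FSTL1 had ratios of 1.38 (1.22 to 1.55) and 1.47 (1.32 to 1.63), under the 1.5-fold rule.

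The receptors, SMADs and targets of the pathway differed little. None of 14 measured receptors and SMADs was called, with medians of 0.03 and 0.06. TGFBR2, the type II receptor, had ratios of 1.13 (0.996 to 1.28) and 1.14 (1.04 to 1.25), and SMAD3 of 1.02 (0.839 to 1.23) and 1.11 (0.943 to 1.30). Among 14 measured TGF-beta target genes FN1 rose and LRRC32 fell, with medians of 0.05 and 0.12. FN1, fibronectin, was 1650 against 927 CPM in hRBC, 1.78-fold higher (1.69 to 1.87), and 1811 against 1115 CPM in 5% pdRBC, 1.63-fold higher (1.56 to 1.69). LRRC32, which holds latent TGF-beta at the cell surface, was 1.60-fold (1.29 to 2.03) and 1.56-fold (1.30 to 1.92) lower.

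Of 14 measured BMP ligands, antagonists and targets FSTL3 was the only one called, and the BMP targets ID1 and ID3 had ratios between 1.00 and 1.13. No FGF receptor, feedback or ETS gene was called among 12 measured, and 9 of the 12 were below 1 in both libraries, with medians of -0.24 and -0.11. DUSP4, a phosphatase of the ERK pathway, had ratios of 0.578 and 0.672. SPRY2, a feedback inhibitor of FGF signalling, had 0.834 and 0.933.

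DKK1 was the only gene called among 10 measured WNT and R-spondin genes. DKK1 encodes a secreted antagonist of WNT receptors, whereas RSPO3 enhances WNT signalling. It was 401 against 159 CPM in hRBC, 2.52-fold higher (2.26 to 2.81), and 228 against 120 CPM in 5% pdRBC, 1.89-fold higher (1.68 to 2.13). AXIN2, a WNT target, had no UMI in members of either library and was not measured.

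Elastic fibre genes split. LOX, the oxidase that crosslinks elastin and collagen, was 61.0 against 31.4 CPM in hRBC, 1.95-fold higher (1.46 to 2.55), and 56.8 against 32.0 CPM in 5% pdRBC, 1.78-fold higher (1.39 to 2.25). MFAP2, a microfibril protein, was 1.77-fold (1.23 to 2.75) and 1.88-fold (1.40 to 2.64) lower. EFEMP1, fibulin-3, had ratios of 1.28 in both libraries and was not called. No other of the 8 measured genes was called.

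Among 8 measured keratins and other intermediate filaments KRT18 rose and SYNM fell. KRT18, a type I keratin that can pair with KRT7, was 268 against 121 CPM in hRBC, 2.22-fold higher (1.94 to 2.52), and 162 against 86.5 CPM in 5% pdRBC, 1.88-fold higher (1.62 to 2.16). KRT8, a type II keratin, was not called, at 31.4 against 20.2 CPM in hRBC and 19.8 against 18.2 CPM in 5% pdRBC. VIM, the vimentin of all HUVECs, had ratios of 1.13 and 1.15. With KRT7 left out of the score, KRT18 in hRBC stood at a log2 ratio of 0.42, short of 1.5-fold.

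Among 8 measured mesenchymal transition genes FN1 and CDH2 rose and none fell. Of 25 endothelial transcription factors FOXC2 and GATA6 rose. FOXC2, a forkhead factor of lymph vessels and valves, was 1.86-fold (1.58 to 2.17) and 1.66-fold (1.44 to 1.90) higher, and GATA6 was 1.65-fold (1.14 to 2.29) and 1.68-fold (1.30 to 2.12) higher. YAP and TAZ target genes had medians of 0.38 and 0.13 over 20 measured genes, against 0.00 and -0.04 over all genes, but FSTL3 alone was called. CCN2, a matricellular YAP target, had ratios of 1.48 (1.41 to 1.54) and 1.41 (1.36 to 1.46), just under the 1.5-fold rule, and ANKRD1 had 1.40 (1.30 to 1.51) and 1.39 (1.28 to 1.49).

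Of 11 measured VEGF and angiopoietin genes 3 fell and 1 rose, with medians of -0.39 and -0.32. ANGPT2, the antagonist ligand of TIE2, was 23.1 against 61.1 CPM in hRBC, 2.59-fold lower (1.77 to 4.12), and 40.4 against 80.0 CPM in 5% pdRBC, 1.97-fold lower (1.52 to 2.62). NRP1 and NRP2 fell with it and ANGPTL4 rose, 1.5-fold (1.26 to 1.77) and 1.73-fold (1.52 to 1.95). KDR, the main VEGF receptor, was 1.72-fold lower in hRBC (1.43 to 2.09) and 1.47-fold lower in 5% pdRBC (1.26 to 1.73), which missed the rule in 5% pdRBC. The Notch genes NOTCH4 and JAG2 also fell, as 2 of 13 measured.

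Several of these list genes missed 1.5-fold in hRBC with KRT7 left out of the score: the log2 ratio was 0.41 for LOX, -0.15 for MFAP2, -0.15 for SULF2, -0.34 for NRP1, -0.33 for JAM3, 0.51 for CLDN11 and -0.48 for JAG2. FSTL3 in hRBC stood at 0.41 with the 8 genes weighted the same, and ANGPTL4 at 0.27 and GATA6 at 0.42 with the top 20% as members.

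**Figure D4:**
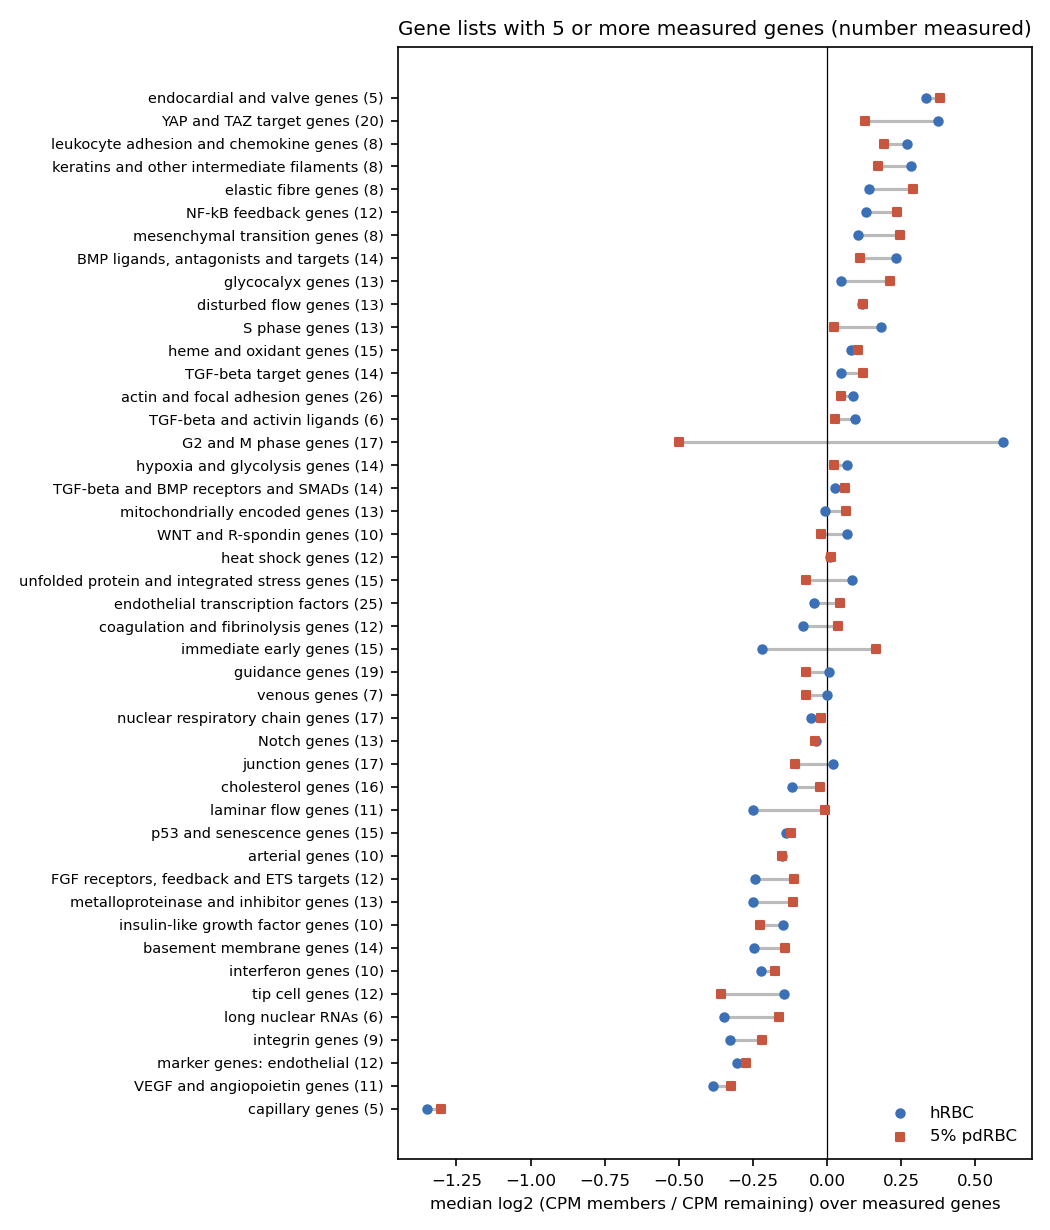
Each row is a gene list with 5 or more measured genes, and each point the median log2 ratio of CPM in members over remaining barcodes in hRBC (blue circle) or 5% pdRBC (red square). Capillary genes lie lowest in both libraries at -1.35 and -1.30, and G2 and M phase genes lie on opposite sides at 0.59 and -0.50.

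Members overlapped other score-cut ranges of the same barcodes, each also the top 10%. The median share of UMIs from CCN1, CCN2 and THBS1 was 0.620% in members against 0.445% in hRBC and 0.739% against 0.514% in 5% pdRBC. Of the members 14 (16.9%) in hRBC and 48 (36.6%) in 5% pdRBC were also in the top 10% by these genes, as were 6.27% and 8.80% of the remaining barcodes. By LDB2, MAGI1 and DACH1 the members counted 0 (0%) and 6 (4.58%), against 5.83% and 13.6% of the remaining barcodes. By VWF they counted 2 (2.41%) and 9 (6.87%), against 7.29% and 12.4%. For MGP and FABP4 the members counted 2 (2.41%) and 7 (5.34%), against 8.75% and 11.7%. For APLN and MEST they counted 6 (7.23%) and 7 (5.34%), against 10.3% and 10.5%. For KLF2 and NOS3 the libraries differed: 7 (8.43%) against 9.91% in hRBC, and 22 (16.8%) against 9.45% in 5% pdRBC.

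The members differed among themselves in FST. FST had a UMI in 35 of 83 hRBC members and 50 of 131 5% pdRBC members, at median depths of 14458 against 12331.5 UMIs for the others in hRBC and 10929 against 10138 in 5% pdRBC. CXCL8 was 162 CPM in members with FST against 59.8 CPM in members without in hRBC, a ratio of 2.68 (1.79 to 4.16), and 259 against 72.8 CPM in 5% pdRBC, a ratio of 3.54 (2.63 to 4.85). In hRBC a single member held 40 of the 83 CXCL8 UMIs of members with FST, while members without FST held 34 in all. The hRBC ratio of CXCL8 thus leans on 1 barcode. SLC7A2 had ratios of 1.56 (1.03 to 2.40) and 1.53 (1.1 to 2.14). KRT7 and TGFB2 entered the score with FST, so their values in this split are a description: KRT7 had ratios of 0.779 (0.683 to 0.887) and 0.681 (0.599 to 0.771), and TGFB2 of 1.89 (1.03 to 3.62) and 2.19 (1.38 to 3.58). SLIT2 went in opposite directions, with 0.632 (0.463 to 0.852) in hRBC and 2.05 (1.60 to 2.63) in 5% pdRBC.

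The last comparison set 5% pdRBC against hRBC within members, which asks how these endothelial cells differed after flow with some stiff red cells. Members of the 5% pdRBC library carried more RNA of immediate early genes and less of LINGO1 and, resting on few barcodes, of G2 and M phase genes. With 50 or more UMIs over both libraries' members, 6371 genes were measured, of which 196 were called higher with 5% pdRBC (3.08%) and 194 lower (3.05%). A gene could reach this minimum mostly through 1 library, as EGR1 did with 2 and 157 UMIs and CENPE with 42 and 10. Counting error alone can give some of these calls. In the remaining barcodes, which hold more UMIs (8843624 and 13943289), 57 (0.895%) of the same genes were higher and 28 (0.439%) lower. Of the 196 genes 42 were also called higher in the remaining barcodes and 175 lay on the same side of 1, and of the 194 lower genes 20 were called and 146 lay on the same side. Among these called genes the same direction in the remaining barcodes was thus the more frequent case. Its share over all measured genes was not counted, and no difference between members and other barcodes was tested.

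EGR1, an early growth response factor, had 2 UMIs in hRBC members and 157 in 5% pdRBC members, or 1.85 and 107 CPM, a ratio of 46.6 (15.8 to 484). In the remaining barcodes it was 10.3 and 69.9 CPM, a ratio of 6.76 (5.48 to 8.52). ZFP36, which destabilises inflammatory mRNAs, was 5.55 and 105 CPM in members, 17.6-fold higher (8.53 to 52.6), and 3.34-fold higher (2.81 to 4.02) in the remaining barcodes. FOS, an AP-1 subunit, was 23.1 and 170 CPM in members, 7.21-fold higher (4.86 to 11.6), and 3.62-fold higher (3.16 to 4.17) in the others. Set against the remaining barcodes of the same library, ZFP36 in members had ratios of 0.358 (0.120 to 0.739) in hRBC and 1.88 (1.57 to 2.24) in 5% pdRBC. FOS had 0.856 (0.534 to 1.27) in hRBC, an interval that holds 1, and 1.71 (1.48 to 1.95) in 5% pdRBC.

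FOSB was 3.93-fold (2.71 to 6.0) and ATF3 3.48-fold (2.44 to 5.19) higher within members, against 2.23-fold and 3.04-fold in the remaining barcodes. Of 20 listed immediate early genes 15 reached the minimum within members. Of these 9 rose and none fell, with a median log2 ratio of 0.92 against 0.67 in the remaining barcodes and -0.01 over all genes. All 20 summed to 1311 CPM in hRBC members and 2548 in 5% pdRBC members, and to 1464 and 2249 CPM in the remaining barcodes. TRIB1, a pseudokinase, was 4.55-fold higher (2.42 to 10.3), CBLB, a ubiquitin ligase, 4.23-fold (2.64 to 7.45), and NFATC2, a calcium-responsive transcription factor, 3.64-fold (2.05 to 7.42). FABP4 was 5.07-fold higher (2.30 to 15.6), but a single member held 40.9% of its UMIs in 5% pdRBC, and with the 8 genes weighted the same its log2 ratio was -0.02. BEST1 completes the 10 highest, at 3.49-fold (2.21 to 6.0).

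LINGO1, a leucine-rich membrane protein known from neurons, was 174 CPM in hRBC members and 14.4 CPM in 5% pdRBC members, 11.8-fold lower with 5% pdRBC (7.69 to 20.01). It was 8.41-fold lower (7.34 to 9.71) in the remaining barcodes, so LINGO1 was a difference between the libraries in both. CENPE, a kinesin of the kinetochore, was 38.8 and 6.84 CPM in members, 5.47-fold lower (2.80 to 12.7), and 1.44-fold lower (1.18 to 1.76) in the remaining barcodes. BIRC5, survivin of dividing cells, was 2.74-fold lower (1.52 to 5.30) within members. Few members held these RNAs: CENPE had a UMI in 18 of 83 hRBC members and 10 of 131 in 5% pdRBC, and BIRC5 in 16 and 14. CDC20 was seen in 10 and 4 members, and CDK1 in 10 and 5. Of 20 listed G2 and M phase genes 7 reached the minimum within members and 6 of them fell, with a median of -0.99 against -0.27 in the remaining barcodes. All 20 summed to 587 CPM in hRBC members and 287 in 5% pdRBC members, and to 430 and 357 CPM in the remaining barcodes. Without the 10% of barcodes richest in cycling genes, a list that holds BIRC5 itself, the log2 ratio of BIRC5 was 0.01.

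TNFRSF6B, a decoy receptor of the TNF family, was 54.5 and 8.21 CPM, 6.43-fold lower with 5% pdRBC (3.53 to 13.6), against 1.75-fold in the remaining barcodes. CXCL1, a neutrophil chemokine, was 58.2 and 20.5 CPM, 2.81-fold lower (1.81 to 4.54), with a single member holding 46.0% of the hRBC UMIs; with KRT7 left out of the score its log2 ratio was -0.13. MT1E, a metallothionein that shares sequence with close relatives and so has uncertain counts, was 3.34-fold lower (2.43 to 4.69), and CRIP1, a small LIM protein, 2.98-fold (2.0 to 4.58). TBC1D2, PAK1IP1 and MRPS18B complete the 10 lowest, between 2.60-fold and 3.53-fold. ICAM1, an adhesion receptor for leukocytes, was 10.2 CPM in hRBC members and 35.6 CPM in 5% pdRBC members, 3.38-fold higher (1.80 to 7.43), against a ratio of 1.26 in the remaining barcodes. A single member held 45.5% of its 11 UMIs in hRBC and another 23.1% of 52 UMIs in 5% pdRBC. Of 7 leukocyte adhesion and chemokine genes measured within members 1 rose and 2 fell, with a median log2 ratio of 0.00.

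**Figure D5:**
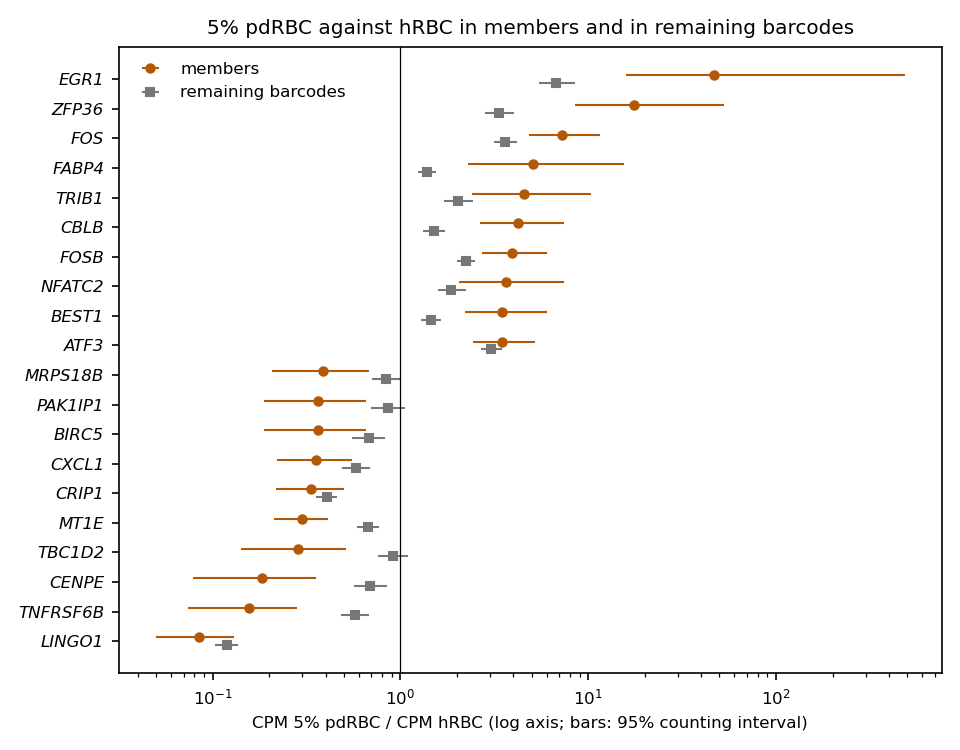
Each row is a gene named in the comparison of libraries, with its CPM in 5% pdRBC over hRBC on a log axis in members (brown circles) and in the remaining barcodes (grey squares) and exact 95% counting intervals as bars. EGR1 stands at 46.6 in members and 6.76 in the others, and LINGO1 at 0.0844 and 0.119.

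The genes that chose the members are given as a description, since their summed share set the cut in both libraries. FST was 272 CPM in hRBC members and 163 CPM in 5% pdRBC members, a ratio of 0.599 (0.503 to 0.713), and 0.750 in the remaining barcodes. LYPD1 was 135 and 211 CPM, a ratio of 1.56 (1.28 to 1.92), and 1.17 in the remaining barcodes. KRT7 had a ratio of 0.864 (0.792 to 0.942) and TGFB2 of 1.20 (0.836 to 1.76). SULF1 was 1.52-fold higher with 5% pdRBC in members (1.23 to 1.88) and at 0.787 in the remaining barcodes. DKK1 was 0.568 (0.491 to 0.656) in members and 0.756 in the others. Among genes that set the members apart in both libraries, SULT1E1 had a ratio of 1.12 between the libraries and SLC7A2 of 1.11. PTX3 had a ratio of 0.941, SLIT2 of 1.05 and TFPI2 of 0.920. TFPI2 had 20 UMIs in hRBC members and 25 in 5% pdRBC members. It fell below the UMI minimum within members and could not be called there.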

How the data were processed

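For each of 2 HUVEC libraries the authors deposited unscaled UMI counts by barcode and gene. Cell Ranger 7.0.0 is named by the file headers, and GRCh38 by the submitters' processing notes. Neither the annotation release nor the use of strand is given in the sources used here, so antisense, overlapping and near-identical genes have uncertain counts. No deposited barcode has fewer than 500 UMIs. Of 36601 genes, 34616 (94.6%) matched GENCODE 29 by identifier, which gave the positions.

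The members, the 8 genes that choose them and the gene lists were chosen with earlier results of these data known. No doublet caller was run and all barcodes were left in, so doublets are not removed. UMIs were summed per library over members (1081808 in hRBC, 1462068 in 5% pdRBC) and over the remaining barcodes (8843624 and 13943289). CPM is a gene's UMIs scaled to a sum of 1e6, and a ratio of CPM has 0.5 UMIs added to each sum. The 95% interval comes from the split of a gene's UMIs between both sums (exact Clopper-Pearson); intervals of a level are exact Poisson ones. They cover counting error only and hold neither the spread between devices nor that between cells. Fewer cells with a gene and less RNA per cell cannot be told apart in such sums. With 1 library per group no test was made. The call rule, 1.5-fold with an interval leaving out 1, and the UMI minimums (100 per library, or 50 within members) are given with the results. The calculation was tested on simulated data.

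Named are the 15 called genes highest and the 15 lowest in members by the weaker library at 20 or more CPM, the 10 highest and 10 lowest with 5% pdRBC within members, the 8 choosing genes, up to 6 measured genes of each of 57 lists with the largest mean change, and all measured genes of lists on TGF-beta, BMP, FGF, WNT, elastic fibres and keratins. Mitochondrial, ribosomal protein, hemoglobin, clone-named, LINC, XIST and Y-linked genes are not named. AXIN2 and the marker genes at 0 were named beside these. Alternatives changed the barcode filters, the cut, the score, the depth, the weighting, the scaling, the gene minimum and the fold. Python 3.11.15, NumPy 2.4.6, SciPy 1.17.1, pandas 2.3.3 and matplotlib 3.10.9 were used. Promoters came from RefSeq on GRCh38.p14.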

Additional observations from a re-analysis of the deposited data

Results flagged for a closer look

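For 11 genes the members differed from the remaining barcodes by 1.5-fold or more in opposite directions in the 2 libraries, with counting intervals on opposite sides of 1; the difference between the libraries was not tested. AJUBA, a LIM protein of the Hippo pathway, had a ratio of members over remaining barcodes of 2.21 in hRBC and 0.636 in 5% pdRBC. The division genes ANLN (anillin) and CENPE had 1.67 and 1.77 in hRBC and 0.540 and 0.467 in 5% pdRBC. CDK7 had 1.58 and 0.479, IRS2, an adaptor of insulin signalling, 1.70 and 0.566, and MID1 1.53 and 0.534. TBC1D2 had 1.73 and 0.537, TNFRSF6B 1.80 and 0.490, and ZNF804A 2.48 and 0.553. GABPB1-AS1, an antisense RNA whose counts are uncertain since strand is not given, had 1.56 and 0.636. ZFP36 was the only gene of the 11 that was lower in hRBC members, at 0.358, and higher in 5% pdRBC members, at 1.88. The 8 genes that chose the members were also present in the barcodes left out, at 368 CPM in hRBC and 271 CPM in 5% pdRBC, above the level that a count of 0 allows (0.682 and 3.98 CPM).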

How the results depend on the processing

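No paired analysis was possible because each group has 1 library and no test was made. With the top 5% or top 20% as members, they made up 5.59% and 20.7% of kept barcodes in hRBC and 4.67% and 19.6% in 5% pdRBC. The counts of 72 genes higher and 140 lower in members became 42 and 66 with KRT7 left out of the score, 39 and 82 with each barcode thinned to 5000 UMIs, 27 and 42 with a gene minimum 5 times higher, and 19 and 51 at 2-fold. The lower count alone also moved, to 90 with the 8 genes weighted the same and to 66 with held-out UMIs. Calling in a single library, an alternative chosen after seeing the data, gave 261 and 371 in hRBC and 143 and 406 in 5% pdRBC. Within members, the 196 genes higher and 194 lower with 5% pdRBC became 118 and 93 when thinned, 31 and 22 with the higher gene minimum, 318 and 331 with a gene minimum 5 times lower, and 56 and 39 at 2-fold. The lower count was 123 with held-out UMIs. Many of these were other genes: when thinned, only 42 of the 118 were among the 196 and 29 of the 93 among the 194. With held-out UMIs 57 of the 123 were among the 194. Leaving out each gene's top member barcode, also chosen after seeing the data, gave 56 and 179 for members and 197 and 183 for the libraries. The remaining alternatives left each count within 1.5 times, but not with the same genes: of the genes higher with 5% pdRBC within members, 81 of 186 without KRT7, 75 of 171 with the top 5% and 60 of 166 with held-out UMIs were among the 196. Members shared 140 of 214 barcodes with those chosen by equal weights, 165 when thinned and 174 with held-out UMIs. The direction turned for FABP4 within members with equal weights (log2 -0.019), for PLAT in 5% pdRBC with held-out UMIs (0.22) and for BIRC5 within members without the barcodes richest in cycling genes (0.013). The cause was not tested, beyond fewer UMIs or genes in the thinned, held-out and minimum settings. Depth limits the sparse genes most, RSPO3, ACE and EGR1 in hRBC members among them.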

Other observations

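Other gene groups gave further differences between members and remaining barcodes. IGFBP4, a binding protein of insulin-like growth factors, was 337 CPM in members against 684 in hRBC, 2.03-fold lower (1.82 to 2.26), and 368 against 767 CPM in 5% pdRBC, 2.08-fold lower (1.91 to 2.28). It was the only gene called among 10 of that system. MMP1, interstitial collagenase, was 1.72-fold (1.58 to 1.88) and 1.73-fold (1.62 to 1.85) lower, and ADAMTS9, a secreted proteoglycanase, 2.02-fold (1.58 to 2.66) and 1.68-fold (1.42 to 2.01) lower, as 2 of 13 metalloproteinases and inhibitors. CDH11, a cadherin of valve and mesenchymal cells, was 1.85-fold (1.24 to 2.64) and 1.59-fold (1.07 to 2.26) higher. SNHG5, a host RNA of small nucleolar RNAs, was 1.86-fold (1.66 to 2.07) and 1.71-fold (1.53 to 1.90) higher, while GAS5, another such host, had ratios of 0.792 and 0.560. APLN, the peptide apelin of tip cells, was 1.57-fold lower in hRBC (1.1 to 2.37) and 5.82-fold lower in 5% pdRBC (3.44 to 11.8).

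None of the 26 actin and focal adhesion genes, 14 basement membrane genes, 12 heat shock genes, 15 heme and oxidant genes, 16 cholesterol genes or 10 interferon genes was called in both libraries. Basement membrane genes were mostly below 1, in both libraries for 10 of 14, with medians of -0.25 and -0.14 on the log2 scale; COL4A1 had ratios of 0.661 (0.570 to 0.761) and 0.867 (0.772 to 0.967). Within members APLN had a ratio of 5% pdRBC over hRBC of 0.294 (0.134 to 0.574), against 1.09 in the remaining barcodes. APLN had 31 UMIs in hRBC members and 12 in 5% pdRBC members, and a single member held 22.6% of those in hRBC. It fell below the UMI minimum within members, so it was not measured there and could not be called.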
